A study of Mus musculus with 3 samples.

Results

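The Toll-like receptors (Tlr genes) and 5 genes of their signalling route, Myd88, Irak4, Irak1, Traf6 and Irf5, were examined in tumour cells of a pancreatic cancer line grown in culture or in mice. Members were taken by gene symbol (any Tlr followed by a number, and those 5 names). That rule does not use their values, but the members were chosen with earlier results of these data known. They came to 9 genes with 12 transcripts, of 11886 genes with 17910 transcripts in the authors' deposited table. The receptors with values were Tlr1, Tlr2, Tlr3 and Tlr4; Tlr5, Tlr6, Tlr7, Tlr8, Tlr9, Tlr11, Tlr12 and Tlr13 were not analysed here. The mT3-2D-GFP line comes from a KPC mouse pancreatic tumour of C57BL/6 origin and carries green fluorescent protein. The 3 groups were the line itself in culture, GFP-positive cells sorted from tumours it formed in C57BL/6 (WT) mice, and GFP-positive cells sorted from its tumours in B6.CB17-Prkdcscid/SzJ (SCID) mice. SCID mice lack mature T and B cells and keep macrophages and other innate cells. RNA from 6 WT tumours or 5 SCID tumours was pooled before sequencing, so each group is 1 library, the line is a single line, and the labels used here give no age for the mice. No difference below has a replicate check or a test between conditions.

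Toll-like receptors recognise molecules of microbes and of damaged cells. Tlr2 binds lipoproteins as a pair with Tlr1 or Tlr6, Tlr4 binds bacterial lipopolysaccharide with Ly96 and Cd14, and Tlr3 binds double-stranded RNA in endosomes. Apart from Tlr3, which signals through Ticam1, these receptors recruit the adaptor Myd88, which assembles the kinases Irak4 and Irak1 with the ubiquitin ligase Traf6 and so leads to NF-kB, and to Irf5, a transcription factor of inflammatory cytokine genes. Macrophages use this route heavily, and epithelial and tumour cells carry parts of it.

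RefSeq promoter windows (GRCm38.p6, 250 bases before to 50 after a start) were found for 8 of the 9 members; Tlr4 was not among them. Shown are windows of Tlr2, Tlr1, Myd88 and Tlr3, the members whose windows held a match to the motifs below. Irf5 stood farther above SCID in the WT pool than Myd88, but its window held no match and is not shown. Tlr3, which shares a motif with Tlr2, differed little between the pools. Capitals mark matches on either strand to the NF-kB consensus, to the interferon-stimulated response element (ISRE, GAAA repeated after 2 bases), to the gamma-activated sequence (GAS, TTCNNNGAA) and to the PU.1 motif (GAGGAAGT). The windows lie on the reverse strand at chr3:83841559-83841858 (Tlr2), chr5:64932650-64932949 (Tlr1), chr9:119339969-119340268 (Myd88) and chr8:45410331-45410630 (Tlr3), and are written 5′ to 3′ in the direction of the gene.
Tlr2: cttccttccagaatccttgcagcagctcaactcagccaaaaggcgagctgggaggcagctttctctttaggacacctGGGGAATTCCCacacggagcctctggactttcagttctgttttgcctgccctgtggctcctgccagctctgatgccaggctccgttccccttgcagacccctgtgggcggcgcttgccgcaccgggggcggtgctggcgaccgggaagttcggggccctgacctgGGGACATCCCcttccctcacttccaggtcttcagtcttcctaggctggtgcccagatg
Tlr1: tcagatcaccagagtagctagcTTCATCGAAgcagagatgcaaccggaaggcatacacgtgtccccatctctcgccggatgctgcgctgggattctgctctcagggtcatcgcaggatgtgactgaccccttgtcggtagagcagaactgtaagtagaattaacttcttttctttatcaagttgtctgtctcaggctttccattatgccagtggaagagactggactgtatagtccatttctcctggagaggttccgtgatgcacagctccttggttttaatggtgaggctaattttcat
Myd88: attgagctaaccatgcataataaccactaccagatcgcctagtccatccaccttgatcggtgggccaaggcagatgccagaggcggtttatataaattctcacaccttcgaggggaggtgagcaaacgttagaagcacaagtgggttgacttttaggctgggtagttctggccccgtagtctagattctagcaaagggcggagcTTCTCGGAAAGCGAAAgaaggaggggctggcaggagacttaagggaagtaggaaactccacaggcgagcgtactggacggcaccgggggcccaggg
Tlr3: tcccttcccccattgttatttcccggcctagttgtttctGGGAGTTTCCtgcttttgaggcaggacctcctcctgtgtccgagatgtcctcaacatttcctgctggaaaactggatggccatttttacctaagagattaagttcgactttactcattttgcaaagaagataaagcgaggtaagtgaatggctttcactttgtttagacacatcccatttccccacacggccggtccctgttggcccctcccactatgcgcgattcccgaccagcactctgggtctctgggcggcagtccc

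Tlr2 held NF-kB letters beginning 173 and 172 bases before its start, where 2 matches overlap and the second reads the same on both strands, and again 8 bases before it. Tlr3 held 1 such match, 211 bases before the start of its window, which lies 159 bases from the start in the authors' deposited table. Such letters occurred in 4.51% of 32851 promoter windows. Myd88 held a GAS match 46 bases and an ISRE match 40 bases before the start, and these overlap; its window lies 22 bases from the deposited start. Tlr1 held a GAS match 228 bases before the start, and a second Tlr1 window, at a start 859 bases from the deposited one, held a PU.1 match. GAS letters occurred in 8.30%, ISRE letters in 3.44% and PU.1 letters in 3.20% of all windows. The windows of Irak4, Irak1, Traf6 and Irf5 held none of these letters. A match is a stretch of letters and was not tested as a binding site.

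All values below are fold changes from the authors' deposited table on a log scale, given for a gene as the mean over its transcripts. The table does not state the base, and it was read as log2, so a difference of 1 is taken as 2-fold; every fold and 2-fold count here rests on that reading. The table gives no level of any gene and no read depth, and its comparisons are built from the same 3 libraries: WT minus SCID equals the difference of the other two. Where a gene had several transcripts, their values spread with a pooled SD of 0.22 in WT minus SCID. The corresponding SDs against the line were 0.33 (SCID) and 0.31 (WT), and all of them describe transcripts and not animals. In bulk RNA, more cells of a type and more RNA per cell cannot be told apart.

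Tlr2, the lipoprotein receptor, stood highest of the members in each comparison. With the cell line set to 0, Tlr2 (NM_011905, chromosome 3 from 83836272 to 83841608, reverse strand) was at 0.77 in the SCID pool and at 2.17 in the WT pool in the authors' deposited table. The WT pool was thus 1.40 above SCID (2.64-fold), rank 13 of 11886 genes, and 4.51-fold above the line, also rank 13. Against the line the SCID pool was 1.71-fold higher, which is under 2-fold. Tlr2 was the 1 of 9 members past 2-fold in WT against SCID, where 0.303% of all genes were higher and 0.0168% lower by 2-fold.

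Tlr1, a partner of Tlr2 in lipoprotein binding, followed in WT against SCID. Tlr1 (NM_030682, chromosome 5 from 64924680 to 64932699, reverse strand) was at -0.09 in the SCID pool and at 0.85 in the WT pool in the authors' deposited table. The WT pool was 0.94 above SCID (1.92-fold, rank 40), just short of 2-fold, and 1.80-fold above the line. So the WT library alone was high, and the SCID library and the line were close to each other. Tlr1 and Tlr6 are similar in sequence and lie side by side, from 64924680 to 64933600 and from 64953092 to 64970942 on chromosome 5 in RefSeq. How reads were shared between them is not given in the sources used here.

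Tlr3 and Tlr4 differed little between the pools. Tlr3 (NM_126166), the endosomal receptor for double-stranded RNA, was at 0.30 in SCID and 0.44 in WT, a difference of 0.14 (1.10-fold). Tlr4 (NM_021297), the lipopolysaccharide receptor, was at 0.12 in SCID and 0.24 in WT, a difference of 0.12 (1.09-fold). After a trend in GC content and transcript length was removed, these differences were 0.25 for Tlr3 and 0.24 for Tlr4, and Tlr4 in SCID against the line was at 0.08. Both genes kept the order WT above SCID above the line, within a range smaller than that of Tlr2.

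**Figure D1:**
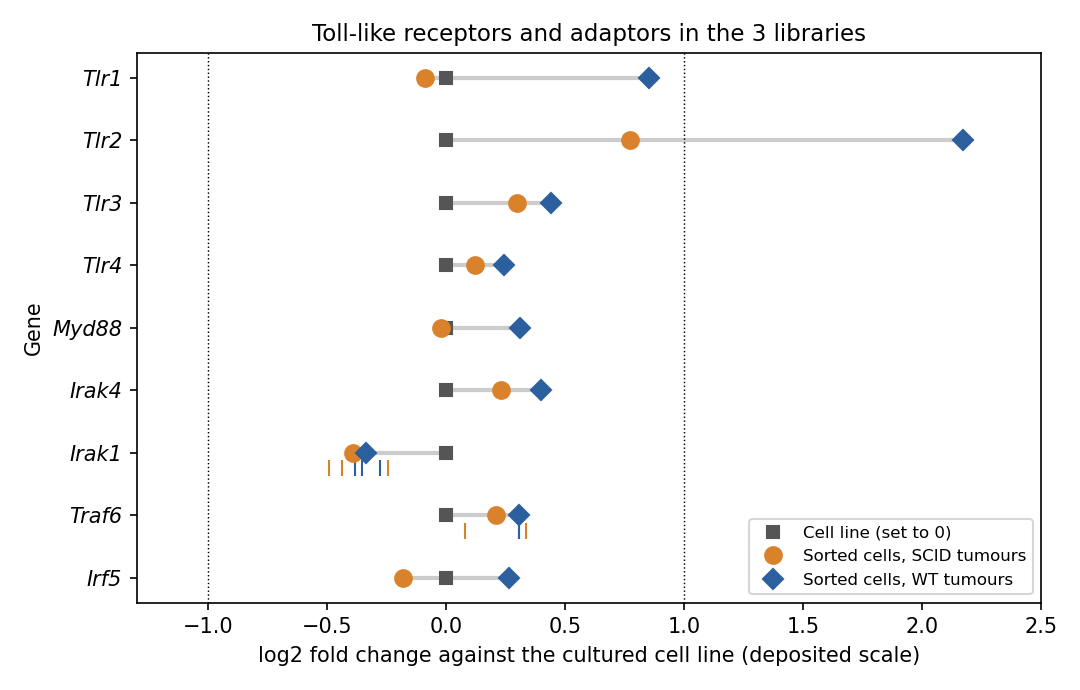
Each row is a gene, and the x axis is the log2 fold change against the cultured line on the deposited scale. Squares are the line (0), circles the SCID pool and diamonds the WT pool; ticks under Irak1 and Traf6 are single transcripts, and dotted lines mark 2-fold. Tlr2 in the WT pool, at 2.17, is the only point beyond 2-fold.

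The adaptor Myd88, which Tlr1, Tlr2 and Tlr4 recruit, was at -0.02 in the SCID pool and 0.31 in the WT pool (NM_010851, chromosome 9 from 119335988 to 119340040). WT was 0.34 above SCID (1.26-fold, rank 363). The SCID value was 0.04 after the GC and length trend was removed, so the side of 0 on which SCID stood is not settled. Myd88 was nearly level between SCID and the line, and the WT library was the high one.

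The kinases differed in direction against the line. Irak4 (NM_029926), the kinase that Myd88 recruits first, was at 0.23 in SCID and 0.40 in WT, with WT 0.17 above SCID (1.13-fold). Irak1, the kinase that Irak4 phosphorylates, was at -0.39 in SCID and -0.34 in WT. It was the only member below the line in both pools, and WT minus SCID was 0.05. The 3 Irak1 transcripts ran from -0.49 to -0.24 in SCID and from -0.38 to -0.28 in WT. Their WT minus SCID values lay on both sides of 0, from -0.03 (NM_001177973) through 0.06 (NM_008363) to 0.14 (NM_001177975), so Irak1 has no common direction between the pools.

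Traf6, the ubiquitin ligase at which the route branches, was at 0.21 in SCID and 0.31 in WT, and WT minus SCID was 0.10 (1.07-fold). Its 2 transcripts share their outer coordinates on chromosome 2, from 101678420 to 101701668, and had nearly the same WT value, 0.306 for NM_001303273 and 0.308 for NM_009424. In SCID they were apart, at 0.08 and 0.34. WT minus SCID was accordingly 0.23 for NM_001303273 and -0.03 for NM_009424, a gap of 0.25 within the gene. The gene's SCID value was 0.34 with the transcript farthest from 0 and 0.11 after the GC and length trend was removed.

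Irf5, the transcription factor at the end of the route, came next after Tlr2 and Tlr1 in WT against SCID. It was at -0.18 in the SCID pool and 0.26 in the WT pool (NM_001311083, chromosome 6 from 29526625 to 29541869), and WT was 0.44 above SCID (1.36-fold, rank 216). The end of Irf5 overlaps Tnpo3, a nuclear import receptor gene on the opposite strand, over 1043 bases. Tnpo3 was at -0.06 in WT minus SCID and at -0.43 and -0.49 in SCID and WT against the line. Whether reads of Tnpo3 enter the Irf5 values was not tested. The library kit marks strand per the labels, but whether counting used it is not given in the sources used here.

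WT stood above SCID for all 9 members, whose median was 0.17, or 0.25 after the GC and length trend was removed. Over all genes 51.5% stood above 0 with a median of 0.004. A similar shift was seen outside the members. Of the epithelial markers of the line 8 of 9 stood above 0, with a median of 0.17. Of 78 other pathway genes 60 did, with a median of 0.14. The direction depended on the transcript for Irak1 and Traf6, as above. In the order of WT minus SCID, the step from Tlr2 to Tlr1 (0.46) and the step from Tlr1 to Irf5 (0.50) exceeded the SD between transcripts of 0.22. Every later step, through Myd88, Irak4, Tlr3, Tlr4 and Traf6 to Irak1, was 0.16 or less. The 4 receptors had a median of 0.54 and the 5 downstream members 0.17, with Tlr3 and Tlr4 inside the range of the downstream members.

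Against the line, 0 of 9 members passed 2-fold in the SCID pool, where 3.65% of all genes were higher and 2.62% lower. In the WT pool 1 of 9, Tlr2, was higher, beside 4.12% of genes higher and 2.03% lower. The member median was 0.12 in SCID (5 of 9 above 0, beside 48.3% of genes) and 0.31 in WT (8 of 9, beside 48.6%). Without Tlr2 the SCID median was 0.05, and it was 0.08 after the GC and length trend was removed. The order WT above SCID above the line held for Tlr2, Tlr3, Tlr4, Irak4 and Traf6, an order seen in 20.1% of all genes. Tlr1, Myd88 and Irf5 instead had the line between the pools, with WT highest, an order seen in 4.96% of all genes. For Myd88 this order did not hold after the GC and length trend was removed.

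**Figure D2:**
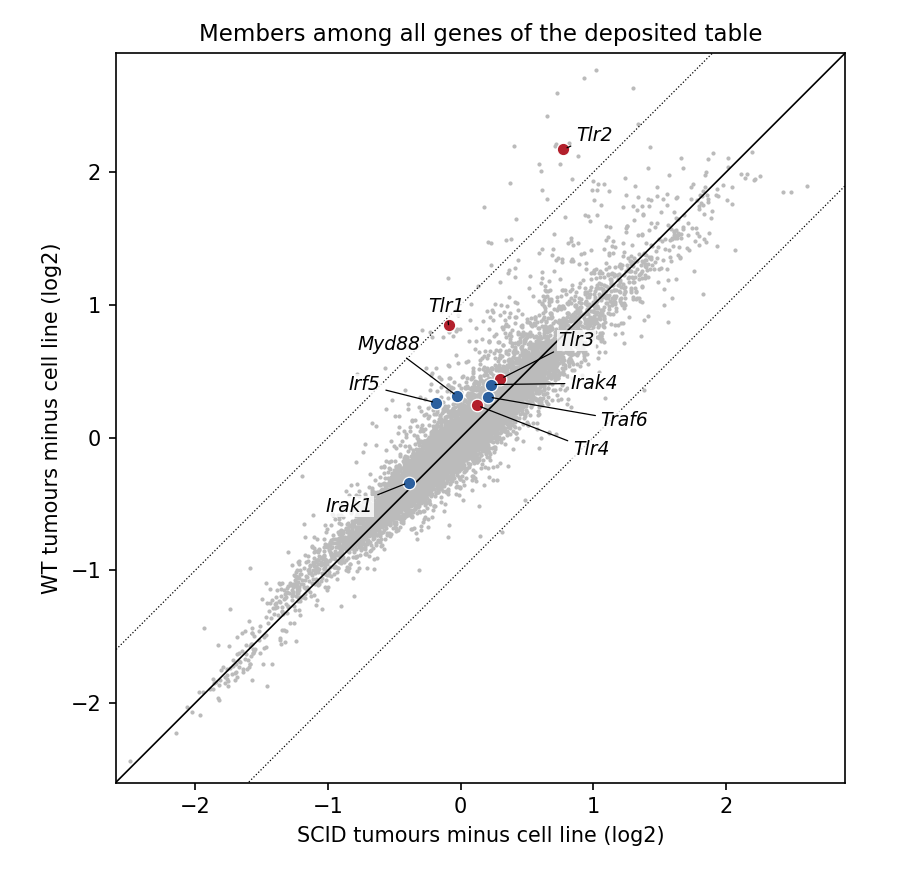
Each grey point is 1 of 11886 genes, with SCID minus the line on the x axis and WT minus the line on the y axis, both log2 on the deposited scale. The solid line is equality of the pools, dotted lines lie 2-fold to either side, red points are receptors and blue points the other members. All 9 members lie above the solid line, and Tlr2 is the 1 beyond the dotted line.

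The wider pathway was described with 10 lists of 125 genes besides the members, of which 78 had a value. In WT against SCID, 1 of the 78 was higher by 2-fold and 0 were lower (0.303% and 0.0168% of all genes), with 60 above 0 and a median of 0.14. The gene past 2-fold was Unc93b1, the chaperone that carries endosomal receptors to endosomes, at 1.26. The folding and transport list (9 of 10 measured) had a median of 0.01 with 6 above 0, with the endosomal proteases Lgmn and Ctsb at 0.75 and 0.37, Hsp90b1, the chaperone of receptor folding, at -0.02 and Cnpy3, its partner, at 0.27. Of 8 co-receptor genes 3 were measured, with a median of 0.11. Cd14, which passes lipopolysaccharide and lipoproteins to Tlr4 and Tlr2, was at 0.80, while Ly96, the obligate partner of Tlr4, was at -0.08 and Hmgb1, a protein released from damaged cells, at 0.11.

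In the lists of signalling genes beyond the members, 0 genes passed 2-fold between the pools, beside 0.303% of all genes higher and 0.0168% lower. The other adaptors had 3 of 5 measured and a median of 0.13, with Pik3ap1 (BCAP), a phosphoinositide 3-kinase adaptor, at 0.33, Ticam1 (TRIF), the Tlr3 adaptor, at 0.13 and Tirap, the bridge to Myd88, at 0.08. The 18 of 21 kinases and ubiquitin enzymes had a median of 0.03, with 11 above 0, and the farthest from 0 were Chuk, a subunit of the IkB kinase, at -0.42 and the stress kinase Mapk8 at -0.33. All 5 measured of 8 other interferon regulatory factors were above 0, with a median of 0.23. Irf1, induced by interferon-gamma, was at 0.70 and Irf2, its antagonist, at 0.23. NF-kB subunits (5 of 5 measured) had a median of 0.15, with Rel at 0.49 and Relb at 0.26.

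Negative regulators (18 of 20 measured) had a median of 0.16, with 14 above 0. Ptpn6 (SHP-1), a phosphatase of blood cells and some epithelia, was at 0.62 and Socs3, a cytokine signalling inhibitor, at 0.51. The list of IL-1 family receptors, which also signal through Myd88, and their decoys had 4 of 8 measured and a median of 0.16. The decoy ligand Il1rn was at 0.36 and Il18rap at 0.30. The 9 measured of 16 other sensors were all above 0, with a median of 0.18, led by Tmem173 (STING) at 0.58 and the RNA sensor Ifih1 at 0.56. Of 24 genes that this signalling induces in macrophages 4 were measured, 3 of them above 0, with a median of 0.52. Tnf was at 0.65, the adhesion molecules Icam1 and Vcam1 at 0.53 and 0.51, and Ptgs2, the inducible cyclooxygenase, at -0.13.

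**Figure D3:**
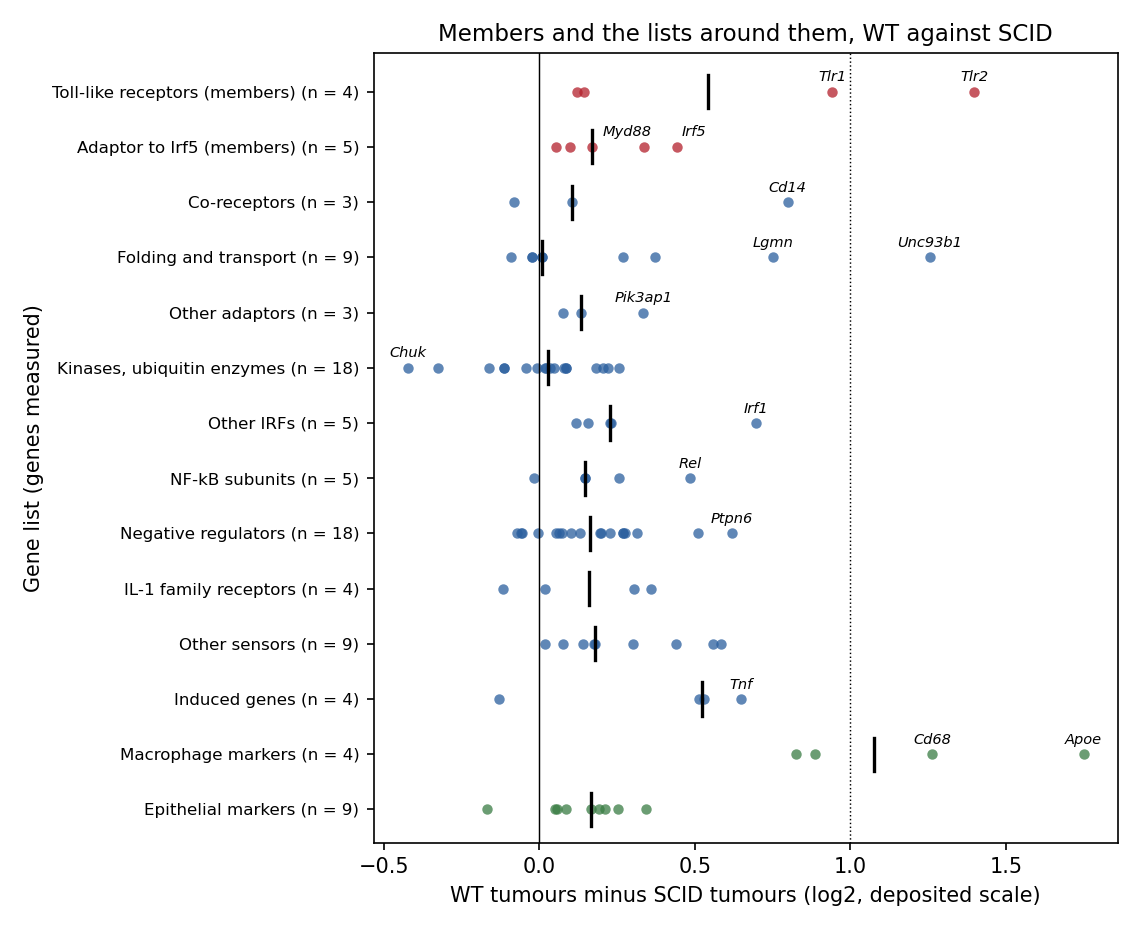
Each point is a gene, placed on the x axis by WT minus SCID (log2, deposited scale) in the row of its list, with the number of genes measured; red points are members, blue the pathway lists and green the markers, black bars are medians, and the dotted line is 2-fold. Tlr2 at 1.40, Unc93b1 at 1.26 and the macrophage markers Apoe at 1.75 and Cd68 at 1.26 lie beyond 2-fold.

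Against the line, 8 of the 78 wider pathway genes were higher by 2-fold and 1 lower in the SCID pool (median 0.13), beside 3.65% of all genes higher and 2.62% lower. In the WT pool 15 were higher and 0 lower (median 0.24), beside 4.12% and 2.03% of all genes. Higher in both pools were the feedback inhibitors Dusp1 (1.93 in SCID, 1.87 in WT) and Nfkbia (1.04 and 1.24), the IL-1 receptor Il1r1 (1.40 and 1.28), Tmem173 (1.31 and 1.90), the inflammasome adaptor Pycard (1.30 and 1.74), Tnf (1.03 and 1.68) and Vcam1 (1.22 and 1.74). Ptgs2 was at 1.05 in SCID and 0.92 in WT, and Il1rn was the gene lower in SCID, at -1.02. Past 2-fold in WT and not in SCID were Unc93b1 (0.62 in SCID, 1.87 in WT), Cd14 (0.41 and 1.21), Lgmn (0.26 and 1.01), Pik3ap1 (0.73 and 1.06), Nfkbie (0.83 and 1.11), Socs3 (0.64 and 1.15), Il18rap (0.73 and 1.03) and Ifih1 (0.60 and 1.16). Dusp1 and Nfkbia are early-response genes, and the labels name cell sorting for the tumour libraries and not for the line, so growth in a mouse and that handling cannot be told apart.

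The lists of NF-kB subunits, other interferon regulatory factors and kinases had 0 genes past 2-fold against the line. They held 5, 5 and 18 measured genes. Over all genes 3.65% were higher and 2.62% lower in SCID, and 4.12% and 2.03% in WT. NF-kB subunits had medians of 0.29 in SCID and 0.43 in WT, with Relb at 0.68 and 0.94 and Rel at 0.36 and 0.84. Other interferon regulatory factors had medians of -0.04 and 0.19, with Irf9 at 0.48 and 0.64 and Irf1 at 0.9998 in WT, just under 2-fold. Kinases and ubiquitin enzymes had medians of 0.04 and 0.08, with Mapk8 at 0.59 and Ube2v1 at -0.40 in SCID, and Chuk at -0.43 and Ikbke at 0.30 in WT. Medians of the remaining lists in SCID and WT were 0.16 and 0.08 for co-receptors (Ly96 at 0.16 in SCID), 0.14 and 0.13 for folding and transport (Ctsl, a cathepsin, at 0.54 in SCID) and 0.12 and 0.25 for other adaptors (Tirap at -0.19 in SCID). They were 0.14 and 0.31 for negative regulators, and 0.80 and 0.96 for IL-1 family receptors and their decoys, Il1rn included. For other sensors they were 0.43 and 0.66, and for induced genes 1.04 and 1.30.

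Markers of macrophages were higher in the same WT pool as Tlr2, Tlr1, Cd14 and Unc93b1. Of 24 such markers 4 were measured, all above 0 in WT against SCID, from 0.82 to 1.75, with a median of 1.07: Apoe at 1.75, Cd68 at 1.26, Mertk at 0.89 and Mrc1 at 0.82. Against the line they ran from -0.06 to 1.02 in SCID (median 0.67) and from 0.77 to 2.77 in WT (median 1.75). The defining markers Adgre1, Csf1r and Ptprc were not analysed here. The part that host macrophages in the sorted fraction play in the Tlr values was not tested. Epithelial markers, which define the line, had 9 of 9 measured with a WT minus SCID median of 0.17, from -0.17 for Sox9 to 0.34 for Epcam, with Cldn4 at 0.25. Against the line their medians were -0.31 in SCID and -0.19 in WT, with Epcam at 1.25 and 1.59, Sox9 at 1.28 and 1.11, Cldn4 at 1.01 and 1.26, Krt7 at -1.18 and -0.99 and Krt19 at -1.01 and -0.95.

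Few markers of other host cells were measured. They were 1 of 10 for dendritic cells and 3 of 12 for T and NK cells. For fibroblasts 1 of 10 was measured, and for endothelium 2 of 9. In WT minus SCID, Zbtb46, a dendritic cell factor, was at -0.07, the T and NK cell genes Foxp3, Tcf7 and Eomes were all at -0.02 to -0.01, the endothelial receptors Kdr and Flt1 were at 0.29 and 0.03, and the fibroblast collagen Col1a1 was at -0.71. In SCID and WT against the line, Zbtb46 was at 0.59 and 0.51, Tcf7 at 0.36 and 0.35, Eomes at -0.61 and -0.63, Kdr at 0.80 and 1.09, Flt1 at 1.63 and 1.66 and Col1a1 at 2.61 and 1.90. Of 8 neutrophil and 7 B cell markers 0 were measured.

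For each member the 3 genes of most similar pattern were found by the distance between their values in SCID and WT against the line, 2 comparisons that share the line. Those nearest to Tlr2 were Fermt3, an activator of integrins (0.72 and 2.20, distance 0.065), Rassf2 (0.82 and 2.22, distance 0.066) and Arg1, arginase (0.72 and 2.22, distance 0.071). Those nearest to Tlr1 were Elmo1, an adaptor of cell engulfment (-0.10 and 0.86, distance 0.013), Prcp, a lysosomal peptidase (-0.11 and 0.82), and Pstpip2 (-0.06 and 0.88). Irf5 was nearest to Arhgap31, Blnk, an adaptor of B cell receptor signalling, and Hpcal4, at distances of 0.031, 0.038 and 0.049. The other members lie where genes are dense, and their nearest genes were within 0.016. They were Ppp1r18, Vps8 and Plekhg2 for Tlr3, Klhl8, Tasp1 and Ticam1 for Tlr4, and Sema4d, Lrrc56 and Rgl1 for Myd88. Irak4 was nearest to Ang, Camta2 and Trip4, Irak1 to Setd3, Atp5a1 and Tbccd1, and Traf6 to Sel1l3, Mafk and Iqsec1. Ticam1, which also serves Tlr4 as an adaptor, was at a distance of 0.0094 from it, after Klhl8 and Tasp1.

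Genes beside the members on the chromosome were chosen after their values were seen. In WT minus SCID those beside Tlr1 and Tlr2 had values near 0. Within 100000 bases of Tlr1 the measured genes were Klf3 at 0.03 and Fam114a1 at -0.13, beside 0.94 for Tlr1. Beside Tlr2 the measured gene was Tmem131l, 56463 bases away, at -0.04. Acaa1a, 1276 bases from Myd88, was at 0.09. Beside Tlr3 (0.14) the cytochrome gene Cyp4v3, 62469 bases away, was at 0.62, and Fam149a and Sorbs2 were at 0.07 and -0.11. The measured neighbours of Irf5 besides Tnpo3 ran from -0.31 (Ccdc136) to 0.01 (Atp6v1f).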

How the data were processed

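RNA-seq compared 3 libraries, 1 per group, so comparisons are descriptions. The authors deposited fold changes per RefSeq transcript, taken here as log2, and no counts are in that table. Its header states no log base; log2 was assumed because it is the scale of DESeq2, and the submitters' processing notes name DESeq2 1.20.0, R 3.5.1, BWA, Partek and mm9 with no role or order. The sources used here do not give shrinkage or row filters, and depth is unknown. The column that names only SCID equalled SCID minus WT within 1e-12 in all 17910 transcripts and was turned to WT minus SCID. Coordinates are 1-based with the end at the stop minus 1; of 17482 transcripts with a symbol in RefSeq's GRCm38.p6 table, 99.5% lay within their gene (tolerance 1000 bases), so the build was read as GRCm38.

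A gene's value was its transcripts' mean (Python 3.11.15, pandas 2.3.3, numpy 2.4.6), and higher or lower means 2-fold or more; the code was tested on simulated data. The members and lists were chosen with earlier results of these data known. Named are all members, list genes past 2-fold (or the 2 farthest from 0, at most 6 a list), the 3 genes nearest each member, and a few list genes and genomic neighbours chosen after their values were seen; 1 gene that the rule names is not reported here. Alternatives were the median or farthest transcript, coding transcripts, centring, residuals from a fit of values on GC content and log10 length with squared terms (GENCODE vM21 sequences for 93.2% of transcripts and all 12 of the members), a 1.5-fold threshold and leaving out the farthest gene.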

Additional observations from a re-analysis of the deposited data

Results flagged for a closer look

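Among the members and the listed genes, some had the tumour pools on opposite sides of the cultured line. SCID was below and WT above it for the members Tlr1 (-0.090 in SCID, 0.85 in WT), Myd88 (-0.023 and 0.31) and Irf5 (-0.18 and 0.26). Of the listed genes the same order held for Icam1 (-0.076 and 0.45), Irf2 (-0.043 and 0.19), Cnpy3 (-0.23 and 0.043), Tab1, a binding partner of the kinase Map3k7 (-0.071 and 0.15), Socs1, a cytokine signalling inhibitor (-0.027 and 0.20), and the macrophage marker Mrc1 (-0.056 and 0.77). Otud7b, a deubiquitinase, had the reverse order (0.034 and -0.023). All these SCID values were closer to the line than the SD between transcripts of 0.33. In WT only Tlr1, Mrc1 and Icam1 were farther from the line than the corresponding SD of 0.31. These SDs describe transcripts and not libraries or animals. The side of the line on which a pool stood is therefore not settled. Myd88 in SCID was at 0.04 after the GC and length trend was removed. Each pool is 1 library, so the difference between the pools was not tested, and 4.96% of all genes have the order WT above the line above SCID.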

How the results depend on the processing

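Across the 5 other ways to compute a gene's value, 0 of 135 member values crossed 2-fold and 1 changed sign. That was Myd88 in SCID against the line, at 0.04 after removal of the GC and length trend. The 7 members with 1 transcript could not change with the median or farthest transcript. All member transcripts are coding, so the coding setting could change none of them. Many of the 135 values were thus fixed by construction. Medians over the members and over the wider pathway moved by less than the SD between transcripts in each setting. The wider pathway's median was 0.21 for WT minus SCID and 0.24 for SCID minus the line with the farthest transcript.

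Counts past the threshold are small and moved. At 1.5-fold, 2 members were higher in WT against SCID, 1 in SCID against the line and 2 in WT against the line. Of the wider pathway 6, 19 and 27 were higher and, in WT against the line, 1 was lower. Over all 11886 genes 131, 1311 and 1339 were higher, and 994 were lower in WT against the line. Without Tlr2, 0 members were higher in WT against SCID or against the line, and without Unc93b1 0 of the wider pathway was higher in WT against SCID. With the farthest transcript 3 wider pathway genes were higher in WT against SCID and 1 was lower in WT against the line. After removal of the GC and length trend 0 were lower in SCID against the line. Fewer genes or another threshold make these counts by construction; for the 2 transcript and trend settings the cause was not tested. Leaving out a replicate was not possible with 1 library per group.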
